A study of Mus musculus with 13 samples.

Results

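The basement membrane genes described here were 10 genes, Lama2, Lama4, Lama5, Lamb1, Lamb2, Lamb3, Lamc1, Nid1, Nid2 and Hspg2, matched by mouse symbol among the 53379 genes of a bulk RNA-seq count table of CD45- thymic stroma cells. The cells came from the thymus of wild type C57BL/6 mice, all 2 months old, from which CD45+ hematopoietic cells had been removed with magnetic beads and by sorting after enzymatic digestion of the tissue. There were 4 libraries at steady state, from mice that the labels call untreated and the count columns call PBS controls of days 1, 4 and 7, and 3 libraries each at 1, 4 and 7 days after a sublethal dose of total body irradiation (the SL-TBI of the labels). PolyA RNA was measured in whole CD45- preparations, so vascular, epithelial and fibroblast transcripts were mixed in every library, and fewer cells of a type and less RNA per cell cannot be told apart. The question was how basement membrane transcripts of vascular and epithelial kind stood at steady state and over the first week after the injury.

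Basement membranes are thin sheets of matrix under epithelium and endothelium and around muscle, nerve and fat cells. Laminins, trimers of 1 alpha, 1 beta and 1 gamma chain, polymerize at the cell surface and bind integrins and dystroglycan through the alpha chain, and nidogens and the heparan sulfate proteoglycan perlecan tie the laminin network to a second network of type IV collagen. In the thymus such sheets surround the blood vessels and underlie the epithelium at the capsule and along the septa.

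All 10 genes passed the filter on low counts, as did 19984 genes in all. Libraries held 15721866 to 52056896 counts (median 44078906), and the lowest count of any of the 10 genes in a library was 218, for Lama5. Values are given in CPM, counts scaled to a common library size after correction by the trimmed mean of M values, with SDs over libraries, and genes are compared with each other only as CPM per kb of exonic length. The nonhematopoietic label was checked against marker lists: fibroblast (FB), endothelial (EC), thymic epithelial cell (TEC) and mural markers were all above 0 in every library, but so were the 13 thymocyte markers, whose score (mean log2(CPM + 0.5)) ran from 4.06 to 5.63 in steady-state libraries, from 2.92 to 3.28 in day 1 libraries, from 0.841 to 1.41 at day 4 and from 3.92 to 8.37 at day 7. The score of 4 erythroid genes also moved, from a mean of 10.6 at steady state to 7.96, 1.16 and 8.53 at days 1, 4 and 7. The part of these cells in the results below was not tested. The study calls the bulk libraries biological replicates, and the labels do not say whether each came from separate mice, so p-values measure the spread between these libraries.

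Nid1, which encodes nidogen 1, had the highest level of the 10 genes in each of the 13 libraries, at a mean of 333.9 CPM per kb. Below it by mean CPM per kb came Lamb2 at 92.3, Nid2 at 76.0, Lamb1 at 53.9, Lama4 at 34.1, Lamc1 at 30.7, Hspg2 at 17.97, Lama2 at 11.9, Lamb3 at 5.66 and Lama5 at 1.65. Apart from Nid1, each gene exchanged places with a neighbour in at least 1 library, and differences between neighbours in this order were not tested. The order held the chains in the gamma 1, beta 1 and beta 2 laminins well above Lamb3, the beta 3 chain of epithelial hemidesmosomes, and Lama5, the alpha 5 chain of epithelial and endothelial laminins.

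**Figure D1:**
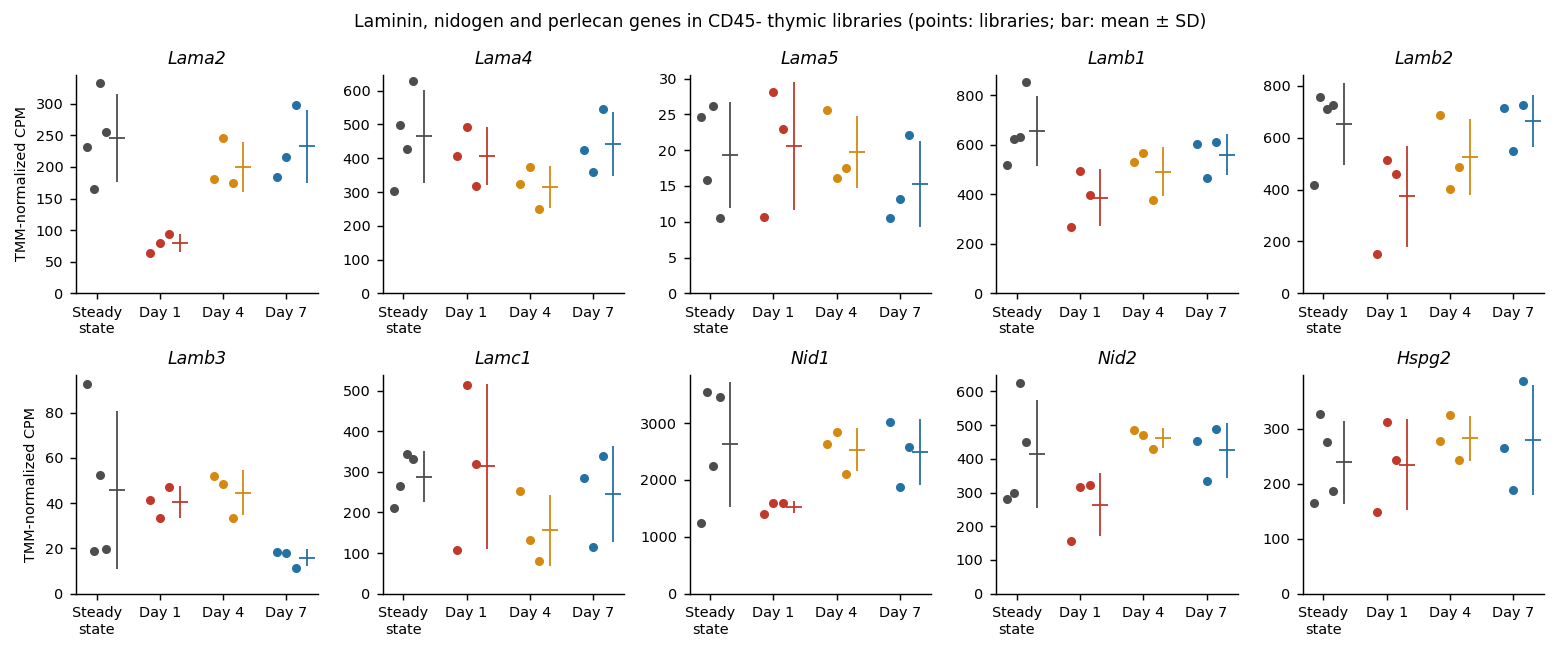
CPM of the 10 basement membrane genes in each library (points), by condition on the horizontal axis, with the mean and SD beside the points. The 3 day 1 libraries of Lama2 (64.4 to 93.8 CPM) sit below all 10 other libraries, and the 3 day 7 libraries of Lamb3 (11.5 to 18.4 CPM) lie below the steady-state range of 18.9 to 92.6 CPM.

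Lama2 encodes the alpha 2 chain of the laminins around muscle fibres, Schwann cells and mesenchymal cells, and its loss causes a congenital muscular dystrophy. It is annotated as ENSMUSG00000019899 on the minus strand of chromosome 10, from 26980036 to 27619758 in GRCm38. At steady state Lama2 stood at 231, 165, 333 and 255 CPM in the 4 libraries. At day 1 it stood at 64.4, 80.3 and 93.8 CPM in replicates 1, 2 and 3. Every day 1 library was below every steady-state library. At day 4 the values were 181, 246 and 174 CPM, and at day 7 they were 184, 216 and 297 CPM. Both later days were above day 1 without overlap and within the steady-state range.

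Of the 10 genes, Lama2 was the 1 that passed the test at day 1 against steady state, where it fell by 1.63 ± 0.28 (SE) on the log2 scale, or 3.09-fold (edgeR quasi-likelihood test, Benjamini-Hochberg adjusted p = 0.00617), and 2.35% of all genes tested passed in this comparison, 0.671% as lower. From day 1 to day 4 Lama2 rose by 1.33 ± 0.29 on the log2 scale (edgeR adjusted p = 0.0365), and 1.43% of all genes passed, 0.355% as higher. From day 1 to day 7 it rose by 1.55 ± 0.29 on the log2 scale (edgeR adjusted p = 0.0090), and 8.13% of all genes passed, 3.68% as higher. These 3 comparisons share the day 1 libraries. Against steady state, Lama2 differed by -0.30 ± 0.27 at day 4 (edgeR adjusted p = 0.614) and by -0.08 ± 0.26 at day 7 (edgeR adjusted p = 0.970) on the log2 scale. A test of any difference among the 4 conditions also called Lama2 (edgeR adjusted p = 0.0127), as it did 6.66% of all genes.

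The fall at day 1 and the rise to day 7 passed the test under each alternative run, including each library left out in turn. The rise from day 1 to day 4 had an adjusted p above 0.05 under 9 of 21 alternatives, 7 of which left out 1 library, and reached 0.203 without replicate 2 of day 4. Column names end in a tag that the labels do not explain; among libraries that share 1 form of it, Lama2 at day 1 (2 libraries) was 3.24-fold below steady state (2 libraries). The Schwann cell markers, from a cell type that makes the alpha 2 chain, had scores of 0.0129 to 2.14 at steady state and 0.439 to 1.61 at day 1, and summed to at most 17.2 CPM in those libraries, so the groups overlapped. At day 4 Schwann scores were 2.40 to 2.93, above every library of day 1 and of steady state, and the markers summed to 27.2 to 68.2 CPM. At day 7 Schwann scores were 0.583 to 2.08 and overlapped those of day 1 and of steady state. FB marker scores also overlapped, at 10.6 to 12.7 at steady state and 10.9 to 11.7 at day 1, and 0 of 8 FB markers passed the test at day 1 by edgeR or DESeq2, although 3 had an unadjusted p under 0.05 and their median log2 difference was -0.58. Mural scores were 5.85 to 6.71 at steady state and 6.83 to 7.02 at day 1. By edgeR 1 of 7 mural markers passed as higher at day 1, Pdgfrb, the receptor through which pericytes are recruited. It rose by 1.68 ± 0.28 on the log2 scale (edgeR adjusted p = 0.00547). The 7 mural markers ran from -1.02 to 1.68 on that scale, with a median of 0.61. DESeq2 called 2 of them, beside 7.76% of all genes. Whether these shifts had a part in the Lama2 result was not tested.

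The sequence upstream of the Lama2 start site is shown because Lama2 was the member that passed the test at day 1. Lama4 had no RefSeq entry for such a sequence. The sequence of Lama5, whose mean changed least at day 1 of the 3 alpha chains described here, is shown beside that of Lama2. Both are the 250 bases before a RefSeq start site in GRCm38.p6, read 5′ to 3′ on the strand of the gene, and capitals mark a GC box (GGGCGG or its complement CCGCCC, so that both strands were searched).
Lama2, chr10:27616943-27617192, minus strand: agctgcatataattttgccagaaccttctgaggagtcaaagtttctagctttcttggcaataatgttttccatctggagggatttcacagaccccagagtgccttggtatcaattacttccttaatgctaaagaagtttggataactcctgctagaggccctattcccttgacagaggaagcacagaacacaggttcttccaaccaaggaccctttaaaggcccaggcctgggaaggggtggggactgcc
Lama5, chr2:180225860-180226109, minus strand: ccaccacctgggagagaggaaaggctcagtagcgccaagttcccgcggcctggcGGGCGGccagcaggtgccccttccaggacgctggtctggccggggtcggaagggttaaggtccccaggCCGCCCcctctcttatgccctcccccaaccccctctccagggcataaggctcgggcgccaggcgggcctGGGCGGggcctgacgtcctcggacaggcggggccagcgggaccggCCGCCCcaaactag
The Lama2 window, whose start site lies inside the annotated gene, held 0 GC boxes and 0 CpG dinucleotides at 47.2% G and C, whereas the Lama5 window held 4 GC boxes and 19 CpG dinucleotides at 72.4%. Of 32851 promoter windows of the same length, 32.7% held a GC box, and the median window had 6 CpG dinucleotides and 52.4% G and C. RefSeq windows were at hand for 7 of the 10 genes, 8 windows in all, of which 4 held a GC box. The windows of Lamb2 and Lamb3, which did not pass the test at day 1, also held 0 GC boxes. That of Lamb1, which had every day 1 library below steady state, held 2. Any tie between the windows and the day 1 differences was not tested. These are descriptions of the letters in the windows, and they say nothing of which factors bind there.

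**Figure D2:**
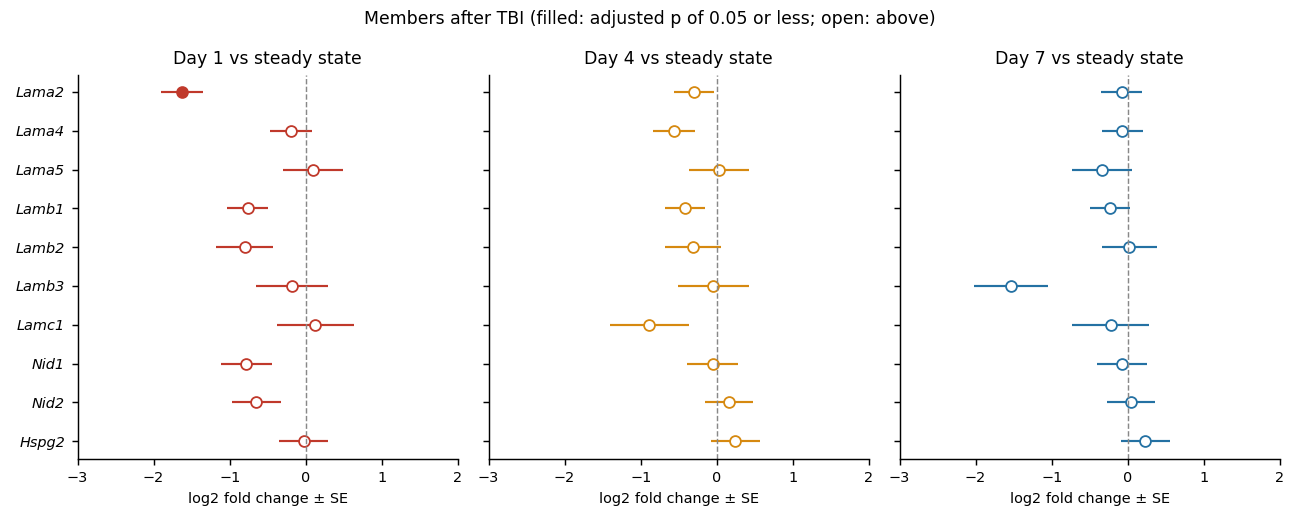
Log2 fold changes with SEs (horizontal axis) of the 10 genes (vertical axis) at days 1, 4 and 7 against steady state, from the edgeR fit to 13 libraries; filled points have an adjusted p of 0.05 or less. Lama2 at day 1 (-1.63) is the filled point, and the largest open point is Lamb3 at day 7 (-1.53).

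The alpha 4 chain, Lama4 (ENSMUSG00000019846, chromosome 10, 38965515 to 39110188), is a component of vascular and mesenchymal basement membranes. It stood at 465 ± 137 CPM at steady state (SD, n = 4) and at 406 ± 87.1, 316 ± 62.2 and 443 ± 95.2 CPM at days 1, 4 and 7 (n = 3 each), with overlapping libraries in each comparison with steady state. Its difference from steady state was -0.19 ± 0.27 at day 1 and -0.56 ± 0.28 at day 4 on the log2 scale (edgeR adjusted p = 0.763 and 0.410). Lama5 (ENSMUSG00000015647, chromosome 2, 180176373 to 180225859) was low throughout, at 19.3 ± 7.39 CPM at steady state and 20.6 ± 8.95, 19.8 ± 5.07 and 15.3 ± 6.05 CPM at days 1, 4 and 7. Its differences from steady state were 0.09 ± 0.39, 0.03 ± 0.40 and -0.34 ± 0.40 on the log2 scale. Neither Lama4 nor Lama5 passed the test in any comparison.

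The makeup of the alpha chain transcripts was chosen after the values were seen and is given as a description. Its shares and the ratio of Lama2 to Lama4 contain Lama2 itself, so they are not separate from its fall at day 1. As shares of the CPM per kb of Lama1 to Lama5 together, Lama4 made up 64.6% ± 11.99 at steady state and 74.1% ± 5.43 at day 1. Lama2 made up 25.6% ± 6.42 in steady-state libraries, 11.02% ± 3.22 in day 1 libraries, 28.1% ± 2.71 at day 4 and 26.4% ± 2.94 at day 7. The Lama2 share was 8.96% to 14.7% in the day 1 libraries and 18.5% to 32.3% at steady state. The log2 ratio of Lama2 to Lama4 within a library, in which the scaling of the library cancels, was 1.43 lower at day 1 than at steady state, 1.69 higher at day 4 than at day 1 and 1.40 higher at day 7 than at day 1, each without overlap. Over the 4 conditions the exact permutation test of this ratio gave p = 0.0113 and, adjusted over the 5 ratios examined, p = 0.0565, which misses 0.05. Between single conditions the exact two-sided p was 0.0571 at day 1 against steady state and 0.1 for the comparisons of days 4 and 7 with day 1, the smallest that groups of these sizes allow. The ratio of Lama4 to Lama5 had an adjusted p of 0.786 in the same exact permutation test.

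**Figure D3:**
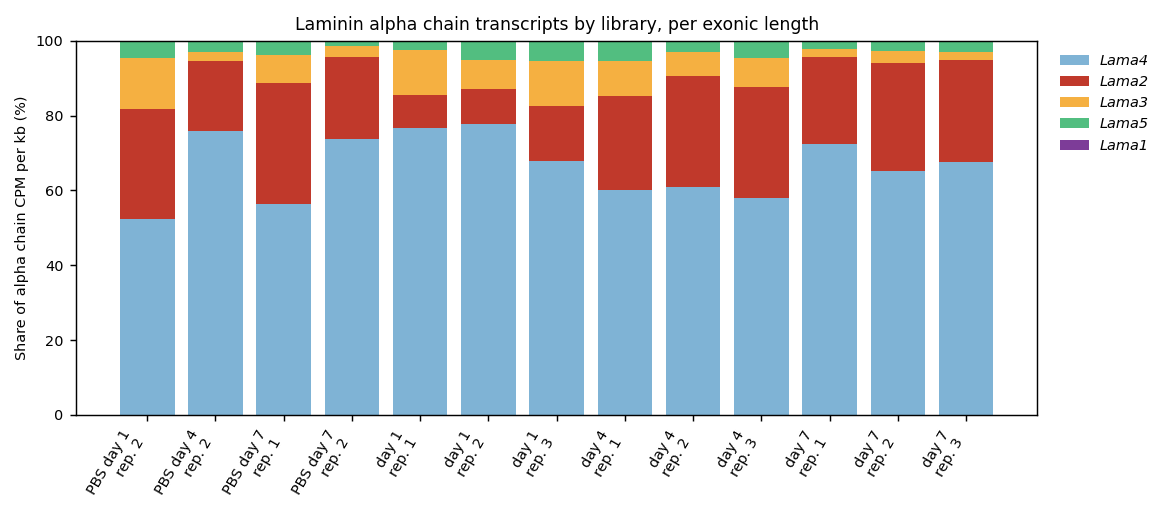
Share of each alpha chain gene in the summed CPM per kb of Lama1 to Lama5 (vertical axis, percent), 1 bar per library. Lama4 is the largest share in all 13 bars, and the Lama2 share is 8.96% to 14.7% in the 3 day 1 bars.

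Of the beta chains, Lamb1 (ENSMUSG00000002900, chromosome 12, 31265234 to 31329644), part of most laminins, stood at 519, 623, 631 and 855 CPM at steady state and at 267, 495 and 397 CPM at day 1. The day 1 libraries were all below the steady-state libraries, but the gap between 495 and 519 CPM was small. Lamb1 differed by -0.77 ± 0.26 on the log2 scale, which did not pass the test over all genes (edgeR unadjusted p = 0.0125, adjusted p = 0.161). At days 4 and 7 it stood at 492 ± 99.1 and 560.3 ± 82.0 CPM. Lamb1 and Lama2 were the 2 of 10 genes with every day 1 library below every steady-state library, and 8.56% of all genes tested had that pattern.

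Lamb2 (ENSMUSG00000052911, chromosome 9, 108479736 to 108490530) encodes the beta 2 chain found at the neuromuscular junction, in the kidney glomerulus and in vessel walls. It stood at 419, 758, 709 and 726 CPM in the steady-state libraries and at 152, 512 and 459 CPM in those of day 1. Later values were 687, 401 and 487 CPM (day 4), then 714, 549.8 and 727 CPM (day 7). Day 1 and steady state overlapped, because the PBS control of day 1, replicate 2, was far below the other steady-state libraries. The difference at day 1 was -0.80 ± 0.37 on the log2 scale (edgeR adjusted p = 0.293). All day 7 libraries were above all day 1 libraries, a difference of 0.83 ± 0.40 that did not pass (edgeR adjusted p = 0.225). The ratio of Lamb2 to Lamb1 did not pass the exact permutation test over the conditions (adjusted p = 0.786).

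Lamc1 (ENSMUSG00000026478, chromosome 1, 153218922 to 153332786), the gamma 1 chain that most laminins share, spread widely at day 1, at 108, 513 and 319.7 CPM. It ranged over 211 to 345 CPM in steady-state libraries, 81.5 to 253 CPM at day 4 and 114 to 339.9 CPM at day 7, and all conditions overlapped. Its largest difference from steady state was -0.89 ± 0.52 on the log2 scale at day 4 (edgeR adjusted p = 0.463). Replicate 1 of day 1 held the lowest day 1 value for 8 of the 10 genes, Lamc1, Lamb2 and Nid2 among them, and replicate 3 of day 4 held the lowest day 4 value for 8.

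The nidogens and perlecan, which join the networks, passed the test in none of the comparisons. Nid1 (ENSMUSG00000005397, chromosome 13, 13437551 to 13512269) stood at 1244, 3549, 2246.5 and 3464 CPM in the steady-state libraries and at 1406, 1589 and 1593 CPM in those of day 1. Later values were 2639, 2839 and 2109.9 CPM (day 4), then 3021, 1869 and 2570.4 CPM (day 7). The day 1 libraries lay close together, below all day 4 and day 7 libraries, while the steady-state libraries spread on both sides of them. The differences were -0.78 ± 0.34 at day 1 against steady state (edgeR adjusted p = 0.259), 0.73 ± 0.36 at day 4 against day 1 (edgeR adjusted p = 0.392) and 0.70 ± 0.36 at day 7 against day 1 (edgeR adjusted p = 0.252), all on the log2 scale. Nid2 (ENSMUSG00000021806, chromosome 14, 19751265 to 19811787) stood at 281, 300.0, 626 and 449.5 CPM at steady state and 156, 315 and 322 CPM at day 1. At day 4 it was at 486, 470.4 and 429.8 CPM and at day 7 at 454, 334 and 489 CPM, above every day 1 library. Of its exonic bases, 8.45% overlap Rtraf on the other strand, and 2.06% of those of Nid1 and 3.86% of those of Lama2 overlap other annotated genes. The study's methods give default settings for the counting, which do not use strand. Reads in the shared bases could therefore not be assigned to a single gene by strand. The ratio of Nid2 to Nid1 did not pass over the conditions (exact permutation test, adjusted p = 0.973). Hspg2 (ENSMUSG00000028763, chromosome 4, 137468769 to 137570630), which encodes perlecan, overlapped in every comparison, at 238 ± 75.7, 234 ± 82.5, 282 ± 40.9 and 279.6 ± 99.6 CPM over the 4 conditions in order of time.

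Read as a list, 8 of the 10 genes were below steady state at day 1, with a median log2 difference of -0.42 beside -0.10 over all genes tested, and 1 passed the test. At day 4 against day 1 the median was 0.31 beside -0.10, and at day 7 against day 1 it was 0.39 beside 0.05. In those comparisons 3 genes (Lama2, Nid1, Nid2) and 4 genes (the same with Lamb2) lay above all day 1 libraries, as did 12.6% and 12.7% of all genes. Against steady state the medians were -0.17 at day 4 and -0.08 at day 7, beside -0.13 and 0.00. At day 4 against steady state 0 of the 10 passed by edgeR, 0 had an unadjusted p under 0.05 and 0 passed by DESeq2, where edgeR called 0.29% and DESeq2 3.23% of all genes. At day 7 against steady state 0 passed by edgeR, 1 had an unadjusted p under 0.05 and 1, Lamb3, passed by DESeq2, where edgeR called 0.005% and DESeq2 5.42% of all genes. In the other comparisons DESeq2 called 7.76% (day 1 against steady state), 5.11% (day 4 against day 1), 14.7% (day 7 against day 1) and 9.61% (day 7 against day 4) of all genes.

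Lamb3 (ENSMUSG00000026639, chromosome 1, 193207699 to 193343878) encodes the beta 3 chain of the laminin under stratified epithelium. It stood at 92.6, 18.9, 52.6 and 19.7 CPM in the steady-state libraries. Day 1 libraries held 41.2, 33.3 and 47.3 CPM and day 4 libraries 52.1, 48.3 and 33.3 CPM. At day 7 it stood at 18.4, 17.8 and 11.5 CPM. The day 7 libraries were below all others, but 2 of the 4 steady-state libraries, at 18.9 and 19.7 CPM, were close to the highest of them. Lamb3 differed at day 7 by -1.53 ± 0.49 against steady state (edgeR adjusted p = 0.165), -1.35 ± 0.51 against day 1 (edgeR adjusted p = 0.123) and -1.49 ± 0.51 against day 4 (edgeR adjusted p = 0.129), on the log2 scale. In these comparisons 4.67%, 14.8% and 14% of all genes were lower at day 7 without overlap, and edgeR called 0 of the 10 genes between days 7 and 4 (3.9% of all genes), where 1 had an unadjusted p under 0.05 and DESeq2 called Lamb3 (adjusted p = 0.0345) with 9.61% of all genes. Without the PBS control of day 1, replicate 2, the steady-state difference was -0.94 (edgeR adjusted p = 0.420), and with the 3 forms of the column tag as a covariate it was -0.94 (edgeR adjusted p = 0.605). Another part of the tag was the same in all day 7 libraries and in no other library, so that part and day 7 cannot be told apart.

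Lama3, the alpha 3 chain of epithelial laminins, was in the list of 21 other basement membrane genes. It stood at 69.0, 15.3, 50.6 and 21.1 CPM in the steady-state libraries and at 56.9, 43.9 and 49.95 CPM in those of day 1. Later values were 45.6, 35.7 and 29.7 CPM (day 4), then 11.8, 16.1 and 14.5 CPM (day 7). Every day 7 library was below every library of days 1 and 4, as for 14.8% and 14% of all genes. Lama3 fell by 1.83 ± 0.46 on the log2 scale from day 1 to day 7 (edgeR adjusted p = 0.0297), where 4.45% of all genes were called lower. Against steady state it did not pass at any day, and at day 7 the difference was -1.47 ± 0.44 (edgeR adjusted p = 0.144).

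**Figure D4:**
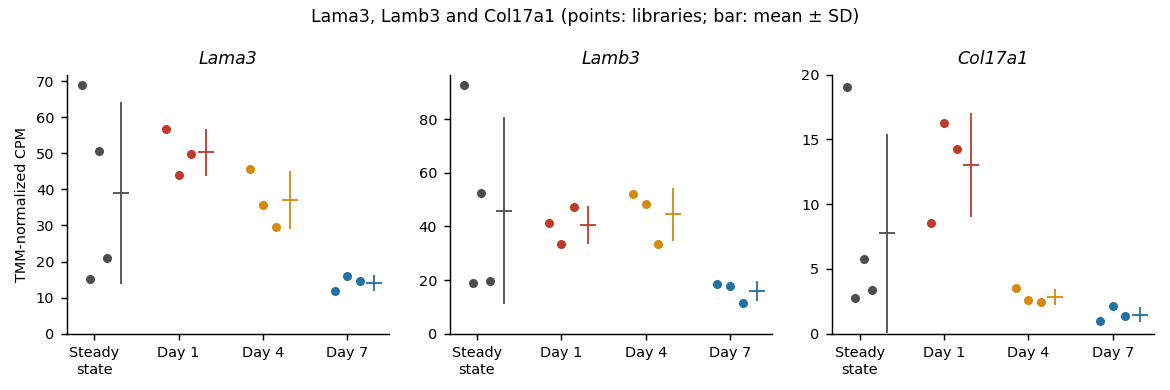
CPM of Lama3, Lamb3 and Col17a1 in each library (points), by condition, with the mean and SD beside the points. The day 7 libraries are low for all 3 genes, and Col17a1 has its highest mean at day 1, 13.01 CPM.

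Among 12 laminin receptors and adhesion partners, Col17a1 passed by edgeR in 1 comparison between conditions, day 7 against day 1, where 8.13% of all genes passed, and the others in none. At days 1, 4 and 7 against steady state, 4, 3 and 1 of the 12 had an unadjusted p under 0.05. DESeq2 called 1, 0 and 1 there, beside 7.76%, 3.23% and 5.42% of all genes. It called 1 at day 4 against day 1 (5.11% of all genes), 2 at day 7 against day 1 (14.7%) and 0 at day 7 against day 4 (9.61%). Col17a1, the transmembrane collagen of hemidesmosomes, stood at 8.54, 16.3 and 14.2 CPM at day 1 and at 0.944, 2.11 and 1.33 CPM at day 7. It fell by 3.15 ± 0.67 on the log2 scale between those days (edgeR adjusted p = 0.0148). The median log2 difference of the 12, which include the integrin subunits and dystroglycan, was -0.46 at day 7 against day 1, beside 0.05 over all genes. TEC markers moved in the same comparison: all 8 were lower, with log2 differences of -2.29 to -0.29 and a median of -1.20. By edgeR 2 of the 8 passed, Krt14 by -1.79 ± 0.36 (edgeR adjusted p = 0.0115) and Cldn4 by -2.29 ± 0.63 (edgeR adjusted p = 0.0419) on the log2 scale. All 13 thymocyte markers passed as higher. TEC scores were 6.63 to 7.34 at day 1 and 5.52 to 6.22 at day 7. The part of TEC number in the epithelial laminin values was not tested.

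Of the 21 other basement membrane genes, 1 passed at day 1 against steady state. Frem1, which encodes an extracellular protein of embryonic epithelial basement membranes, was at 1.18 ± 0.39 CPM at steady state and 3.27 ± 0.97 CPM at day 1, higher by 1.46 ± 0.35 on the log2 scale (edgeR adjusted p = 0.0480), where 1.68% of all genes were called higher. At 3.29 ± 0.83 and 2.87 ± 0.41 CPM it also lay above every steady-state library at days 4 and 7, where it did not pass (edgeR adjusted p = 0.116 and 0.131). Of all genes, 7.25%, 6.44% and 2.82% were above steady state without overlap at days 1, 4 and 7. By edgeR 0 of the 21 passed against steady state at day 4 or day 7, where 1 and 2 had an unadjusted p under 0.05 and 1 and 2 passed by DESeq2, beside 3.23% and 5.42% of all genes. At day 1, 14 of the 21 were below steady state, with a median log2 difference of -0.29 beside -0.10 over all genes. The 6 type IV collagen genes, named outside the rule after their values were seen, had differences of both signs. Col4a1 and Col4a2, the chains of most basement membranes, were at 1246 ± 295 and 770.4 ± 143 CPM at steady state and 1922 ± 879 and 1171 ± 715 CPM at day 1. Their log2 differences at day 1 were 0.63 ± 0.34 and 0.60 ± 0.47 (edgeR adjusted p = 0.369 and 0.547). Col4a3, Col4a4, Col4a5 and Col4a6 differed by -1.06 ± 0.45, -0.89 ± 0.46, -0.97 ± 0.48 and -1.18 ± 0.57 on the log2 scale (edgeR adjusted p = 0.249, 0.348, 0.329 and 0.310). None of the 6 passed.

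The vascular and epithelial sides of the mixed libraries were compared through marker scores, over 40 correlations of the 10 genes with the TEC, EC, FB and mural scores. Members and scores share the scaling of each library, and the 3 forms of the column tag hold at most 5 libraries, too few to repeat a correlation within them. Lamb3 rose with the TEC score (Pearson's r = 0.908, Spearman's rho = 0.890 over 13 libraries, permutation p = 4e-05 and 0.00012, adjusted p = 0.0016 and 0.0024). Within conditions, meaning over all 13 libraries with each condition's mean taken off gene and score, r was 0.933 (permutation test, adjusted p = 0.0133). Without the 2 libraries farthest from the median score r was 0.857. Nid1 rose with the FB score (r = 0.869, rho = 0.918, permutation p = 9e-05 and 5e-05, adjusted p = 0.0018 and 0.0020), with r = 0.930 within conditions (permutation test, adjusted p = 0.0062) and 0.793 without the 2 farthest libraries.

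**Figure D5:**
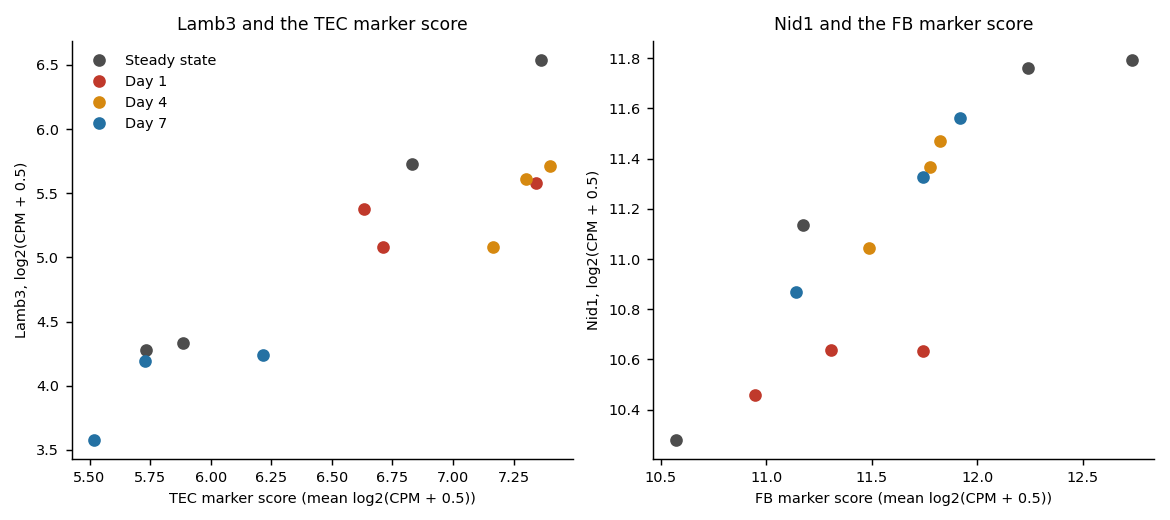
Left, Lamb3 against the TEC marker score; right, Nid1 against the FB marker score, both axes in log2(CPM + 0.5) and 1 point per library, coloured by condition. Lamb3 and Nid1 rise with these scores over the 13 libraries (r = 0.908 and 0.869). With each condition's mean taken off gene and score, r over the 13 libraries was 0.933 and 0.930.

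No gene of the 10 rose with the EC score past the threshold. Lamc1 and Lama4 fell as it rose, with r = -0.810 (rho = -0.725) and r = -0.764 (rho = -0.747, permutation test over 13 libraries, adjusted p = 0.00973 and 0.0225 for r and 0.0458 each for rho), and r = -0.860 and -0.774 without the 2 farthest libraries. Within conditions these were -0.780 and -0.693 (permutation test, adjusted p = 0.0554 and 0.0866), which misses 0.05. Nid1 and Lamb1 went against the EC score within conditions, with r = -0.802 and -0.808 (permutation test, adjusted p = 0.0062 and 0.0481), but over all 13 libraries they had r = -0.417 and -0.504 (rho = -0.555 and -0.615, permutation test, adjusted p = 0.257 and 0.174 for r and 0.122 and 0.0932 for rho). Lama4 also fell as the TEC score rose (r = -0.726, rho = -0.703, permutation test, adjusted p = 0.0293 for r and 0.0563 for rho, r = -0.821 without the 2 farthest), with r = -0.711 within conditions (adjusted p = 0.0942). The mural score went against Lama2 (r = -0.779, rho = -0.830), Lamb1 (r = -0.726, rho = -0.648) and Nid2 (r = -0.725, rho = -0.725), with adjusted p = 0.0149, 0.0225 and 0.0225 for r and 0.0096, 0.086 and 0.0458 for rho in the permutation test, and r = -0.751, -0.613 and -0.744 without the 2 farthest libraries. Of these, Lamb1 kept its relation within conditions (r = -0.713, permutation test, adjusted p = 0.0164), while Lama2 had r = -0.567 (adjusted p = 0.269) and Nid2 r = -0.659 (adjusted p = 0.141). EC scores themselves were 6.65 to 7.15 in steady-state libraries, then 6.68 to 7.12 (day 1), 7.07 to 7.38 (day 4) and 6.65 to 7.23 (day 7), and 0 of 8 EC markers passed in any of the 6 comparisons by edgeR, where 0 to 3 had an unadjusted p under 0.05 and 0 to 1 passed by DESeq2.

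The genes whose pattern over the 13 libraries was most like that of a laminin gene were found among 11459 genes of at least 5 CPM on average, and are given as a description. For Lama2 they were Col6a6, a chain of the microfibrillar type VI collagen (r = 0.970), Itih5 (r = 0.955) and Zfp704 (r = 0.952). For Lamb3 they were Fermt1, the epithelial kindlin that activates integrins (r = 0.974), Rnf180 (r = 0.974) and Tmem150c (r = 0.968). Lama4 was most like Zeb2 (r = 0.891), Dlg4 (r = 0.856) and Creb5 (r = 0.851), and Lama5 was most like Kdm2a (r = 0.897), Kif13b (r = 0.891) and Notch3, a receptor of mural cells (r = 0.889). With the mural score as a whole, which includes Notch3, Lama5 had r = 0.301 (permutation test over 13 libraries, adjusted p = 0.431). The closest pair among the 10 genes was Lamb1 with Lamb2 (r = 0.825).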

How the data were processed

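The authors deposited raw counts per gene and library, not normalized, made with Trimmomatic 0.38, STAR 2.7.0e on GRCm38.p5 and featureCounts 1.6.3 (versions from the submitters' processing notes). The 4 steady-state columns carry no replicate number of the labels and were used as a group. Symbols came from GENCODE M21, in which 53274 of 53379 identifiers matched, promoters from RefSeq.

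All 13 libraries entered 1 edgeR 4.0.16 quasi-likelihood fit (R 4.3.3) by condition, with TMM scaling (factors 0.826 to 1.15) and filterByExpr by condition (0.227 CPM in at least 3 libraries). Genes with an adjusted p of 0.05 or less were counted, without a fold threshold. Ratios and scores used log2(CPM + 0.5), ratios were tested over all 1201200 arrangements of libraries, and correlations with 100000 permutations. The fit was tested on simulated counts. No 2 libraries of a condition agreed within counting noise.

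The text names the 10 members, genes of the lists of basement membrane genes and laminin receptors that passed a test, and the 3 genes most like Lama2, Lama4, Lama5 and Lamb3. Of the basement membrane list, 1 gene was left out and is not reported here. Members and lists were chosen with earlier results of these data known. DESeq2 1.42.0, RLE scaling, other filters, a tag covariate, a replicate block and libraries left out were alternatives.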

Additional observations from a re-analysis of the deposited data

Results flagged for a closer look

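Among the 10 genes and 5 ratios examined at steady state, 1 had a library far from the other 3, where chance alone flags about 1 in 20 groups, or 0.75 of these 15. Lamb2 stood at 419 CPM in the PBS control of day 1, replicate 2, and at 709 to 758 CPM in the other 3 libraries, a gap that was 0.854 of the whole range (past Dixon's 95% critical value for 4 samples). The same library held the lowest steady-state value of 7 of the 10 genes and the highest of Lamb3, at 92.6 CPM.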

How the results depend on the processing

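Lama2 passed at day 1 against steady state under all 20 alternatives (log2 difference -1.78 to -1.38, adjusted p 1.61e-06 to 0.0453) and at day 7 against day 1 under all 21 (1.28 to 1.82). At day 4 against day 1, 0 of the 10 genes passed with only the conditions compared (Lama2 adjusted p = 0.0525), and 0 to 1 passed with a library left out: Lama2 had adjusted p = 0.0587 without the PBS control of day 7, replicate 2, 0.116, 0.142 and 0.0586 without replicates 1, 2 and 3 of day 1, and 0.0668, 0.203 and 0.0969 without replicates 1, 2 and 3 of day 4. For any difference, 0 to 1 passed with a library left out (adjusted p = 0.0604 and 0.0602 without replicates 1 and 2 of day 1). With DESeq2, Lamb3 passed as the 1 gene at day 7 against steady state (adjusted p = 0.0409) and against day 4 (adjusted p = 0.0345). With only the conditions compared, 2 genes passed at day 7 against day 1 (Lamb3 adjusted p = 0.0455) and 1 at day 7 against day 4 (Lamb3 adjusted p = 0.0490). Leaving out libraries gave 1 to 2 genes at day 7 against day 1 and 0 to 1 at day 7 against day 4, Lamb3 passing without the PBS control of day 1, replicate 2 (adjusted p = 0.0386 and 0.0365). The adjusted p of the Lama2 to Lama4 ratio was 0.0494 to 0.170 with a library left out, below 0.05 without the PBS control of day 7, replicate 1. The cause was not tested. Of 1230 alternative values for single genes, 1213 stayed on the same side of the threshold, 9 lost a call and 8 gained one. Most of the 60 results behind them were not called as fitted, so most of the 1213 only stayed uncalled. None of the called values changed sign, but 81 of the uncalled values did. Counts over all genes moved more: 209 to 1399 at day 1 against steady state (469 as fitted), 19 to 645 at day 4 (58), 0 to 1081 at day 7 (1), 56 to 960 at day 4 against day 1 (285), 472 to 2940 at day 7 against day 1 (1625), 0 to 1919 at day 7 against day 4 (779) and 476 to 3665 for any difference (1330).

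By the labels' numbers, no paired analysis was possible against steady state because its columns carry none of them. With the replicate number in the column names as a block over 13 libraries, added after seeing the data, 1, 0 and 0 of the 10 genes passed at days 1, 4 and 7 against steady state (Lama2 at day 1: log2 difference -1.72, adjusted p = 0.0269), and 0 passed for any difference (Lama2 adjusted p = 0.0505). Among days 1, 4 and 7 the numbers gave no clear sign of pairing the libraries. The mean correlation of same-numbered deviations from the condition means was -0.474, -0.140 and 0.0757 for days 1 and 4, 1 and 7, and 4 and 7. For other pairs it was 0.205, 0.0752 and -0.0423, but the centring ties these values to the same-numbered ones, so they are no separate reference. With the replicate number as a block over these 9 libraries, 0 genes passed at day 4 against day 1 (Lama2 log2 difference 1.35, adjusted p = 0.113), 1 at day 7 against day 1 and 0 at day 7 against day 4; the same 9 libraries without the block, a fit added after seeing the data, gave 1, 2 and 1, Lamb3 passing in both of the latter (adjusted p = 0.0168 and 0.0234).

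With 3 or 4 libraries a condition, SEs of the members were 0.26 to 0.55 on the log2 scale, so differences of that size could not be told from 0. Larger differences also missed the threshold, such as -1.53 for Lamb3 at day 7 against steady state (edgeR adjusted p = 0.165). Each gene had at least 218 counts in every library. Bulk CD45- libraries give no level per cell type.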
